A study of Daphnia pulicaria with 8 samples.

Results

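The genes described here encode subunits of the mitochondrial respiratory chain and of ATP synthase, together with the factors that assemble them, in the water flea Daphnia pulicaria. They were chosen by name alone: a gene was taken when its deposited name contained NADH dehydrogenase, ubiquinone oxidoreductase, cytochrome c oxidase, cytochrome b-c1 or ATP synthase, and was left out when the name contained succinate. The rule found 106 of the 33069 genes in the table. By their names, 38 belong to complex I, 7 to complex III, 12 to complex IV and 26 to ATP synthase. A further 18 are assembly factors, 2 are electron transfer flavoprotein-ubiquinone oxidoreductases, and 3 belong to the vacuolar proton pump, which is no mitochondrial complex but carries ATP synthase in its name.

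The lakes Black, Doe, Long and Round each gave a library of Red and a library of Pale whole adults, 8 libraries of ribosome-depleted RNA from 4 lakes, in a study of hypoxia and metabolic phenotype. Per the labels, 30 animals of each lake were preserved together, so a library is a pool. The labels do not say whether these animals were counted per phenotype, and each lake and phenotype combination has a single library. No treatment, age or clone is given in the labels for any group.

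The respiratory chain sits in the inner mitochondrial membrane. Complex I takes electrons from NADH and complex III passes them from ubiquinol to cytochrome c. Complex IV hands them to oxygen, and the proton gradient that complexes I, III and IV build drives ATP synthase. Animals with much haemoglobin, the red pigment of Daphnia blood, are known from low-oxygen water.

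Values are FPKM, which count fragments per transcript length and per size of the library, so levels of different genes can be set side by side. The 106 genes held between 1.33% and 2.02% of the summed FPKM of a library. A single uncharacterized gene held 41.0% to 48.1%. The low values lie on steps, which gave a depth of 1.85 for Black Red relative to Black Pale and of 0.904 to 1.12 for the other 6 libraries. Differences were tested on log2(FPKM + 1) in the 92 members with a mean of at least 1 FPKM, as part of a fit over 12865 genes, and 14 members fell below that level. P-values measure the spread between these libraries only. In whole animals, fewer cells of a kind and less RNA per cell cannot be told apart.

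In Red animals, transcripts for complexes I and III were lower than in Pale animals on the deposited scale, while those for ATP synthase and complex IV lay closer to no difference. The median log2 difference, Red minus Pale, was -0.20 for the 34 tested complex I genes and -0.21 for the 7 complex III genes. It was -0.02 for 11 complex IV genes, -0.07 for 22 ATP synthase genes and 0.04 for 13 assembly factors. Over all 12865 genes it was -0.08. The difference was below 0 in 33 of 34 complex I genes, 7 of 7 complex III genes, 7 of 11 complex IV genes, 14 of 22 ATP synthase genes and 6 of 13 assembly factors.

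Single genes did not pass the test. By limma, 0 of 92 members had an adjusted p under 0.05, as did 0 of 12865 genes (0%), and the smallest adjusted p of a member was 0.286. At an unadjusted p under 0.05, 9 members were lower in Red, against 9.29% of all genes, and 1 was higher, against 2.89%. These 9 members are 9.78% of those tested, a share near the background. The difference was below 0 in 71 of 92 members (77.2%), against 61.5% of all genes. Lower values in 4 of 4 lakes were found in 20 members (21.7%, background 14.6%), and higher values in 4 of 4 lakes in 4 members (background 6.57%). Every Pale library lay above every Red library in 7 members (7.61%, background 4.45%), and the opposite held in 1 (background 1.62%). Members were more abundant than all genes tested, so these shares are not a like comparison. With a mean of at least 5 FPKM, 63 of 73 members were below 0, against 66.5% of all genes. The all-gene median there was -0.12.

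**Figure D1:**
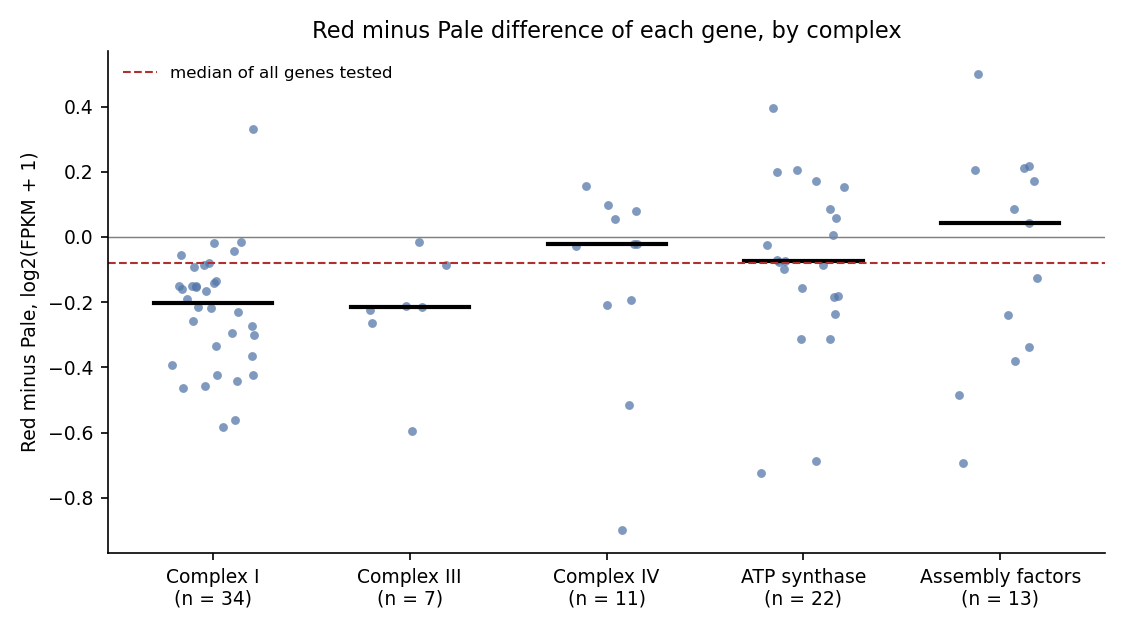
Each point is 1 tested gene, placed by complex on the horizontal axis and by its fitted Red minus Pale difference in log2(FPKM + 1) on the vertical axis; black bars are medians and the dashed line is the median of all genes tested (-0.08). On this deposited scale 33 of 34 complex I points and 7 of 7 complex III points lie below 0, counts that become 19 and 4 with quantile normalization.

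The sign of a complex median depended on how libraries were scaled, though complexes I and III lay below all genes under each scaling tried. The all-gene median moved from -0.08 as deposited to -0.01 with median-of-ratios size factors, to 0.00 when each library was scaled to its sum without the most abundant gene, and to 0.02 with quantile normalization. Complex I had medians of -0.12, -0.10 and -0.02 under these 3 scalings, with 27, 26 and 19 of 34 genes below 0. Complex III had -0.13, -0.11 and -0.02, with 5, 5 and 4 of 7 genes below 0. ATP synthase turned from -0.07 to 0.02, 0.03 and 0.11, and complex IV from -0.02 to 0.07, 0.08 and 0.21. Leaving out any 1 lake turned the assembly factor median to between -0.09 and -0.02, and leaving out Long or Round turned the complex IV median to 0.01 or 0.00.

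**Figure D2:**
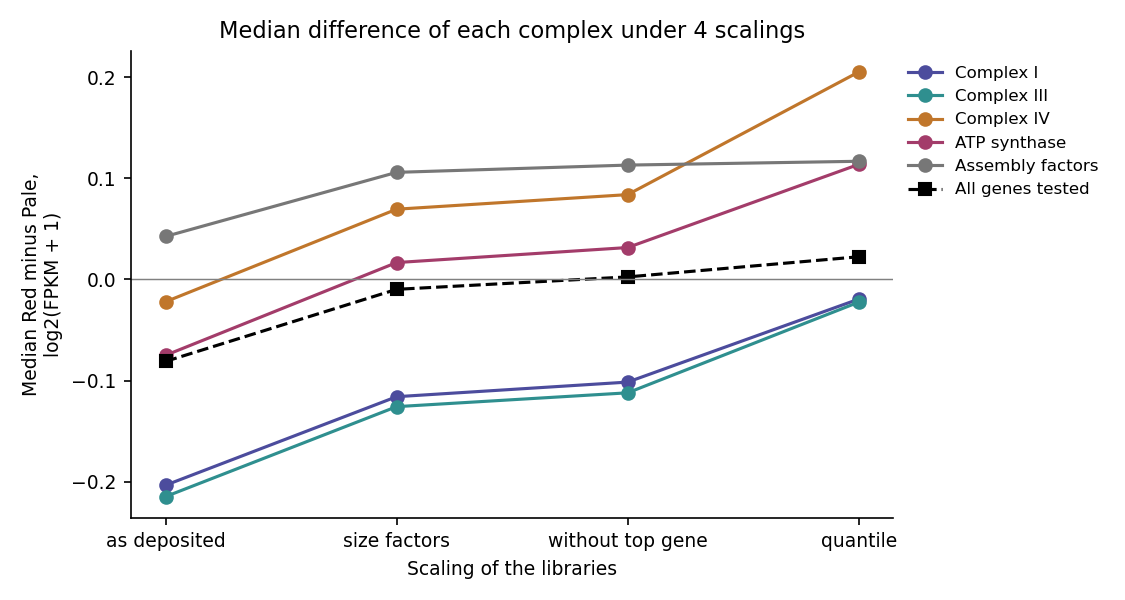
Median Red minus Pale difference in log2(FPKM + 1) (vertical axis) of each complex and of all genes tested under 4 scalings of the libraries (horizontal axis). Complexes I and III lie below all genes under each scaling, while complex IV and ATP synthase cross 0 between the deposited scale and the others.

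A comparison within each library does not depend on its scaling factor. The FPKM of tested complex I genes, without the 2 named chain, summed to 0.347 of the ATP synthase sum in Black Pale, 0.345 in Doe Pale, 0.366 in Long Pale and 0.360 in Round Pale. In the Red libraries this ratio was 0.315, 0.290, 0.282 and 0.302 in the same order. Every Pale value lay above every Red value. The means were 0.354 ± 0.0101 in Pale libraries and 0.297 ± 0.0146 in Red ones (SD, n = 4), and the geometric mean of Red over Pale was 0.838. This separation holds only without the chain genes, which make up most of the complex I sum. With them, all complex I genes summed to 6857, 4673, 6391 and 8650 FPKM in Pale and 7421, 5317, 5660 and 6594 in Red. That sum was higher in Red in Black and Doe, where the ATP synthase sum changed little (1905 to 1910 and 1752 to 1770 FPKM). The ratio and the omission of the chain genes were chosen after values had been seen, so no test is given.

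For complex III the ratio to ATP synthase was 0.151 in Black Pale, 0.149 in Doe Pale, 0.148 in Long Pale and 0.149 in Round Pale. It was 0.127, 0.125, 0.119 and 0.123 in the Red libraries of the same lakes. The groups did not overlap, and the Pale libraries lay within a narrow band. The means were 0.149 ± 0.00121 and 0.123 ± 0.00354 (SD, n = 4), a geometric mean of Red over Pale of 0.8294. For complex IV the means were 0.328 ± 0.00930 and 0.317 ± 0.0249, with a lower Red value in only 2 of 4 lakes, Long and Round.

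These ratios weight abundant genes, and ATP synthase is led by a few. A measure that gives each gene the same weight is the complex median of Red minus Pale less that of ATP synthase within a lake. In Black, Doe, Long and Round it was -0.09, -0.26, -0.25 and -0.17 for complex I, and for complex III it was -0.31, -0.22, -0.13 and -0.20. Both were below 0 in 4 of 4 lakes. For complex IV it was 0.04, 0.01, -0.06 and -0.15, of mixed sign. Taken from the fitted differences of all lakes together, the complex I value was -0.13, with -0.22 when Round was left out and -0.07 when Long was left out. A median taken over the FPKM of the genes themselves, which follows whichever gene is in the middle, gave a complex I to ATP synthase ratio lower in Red in 2 of 4 lakes.

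**Figure D3:**
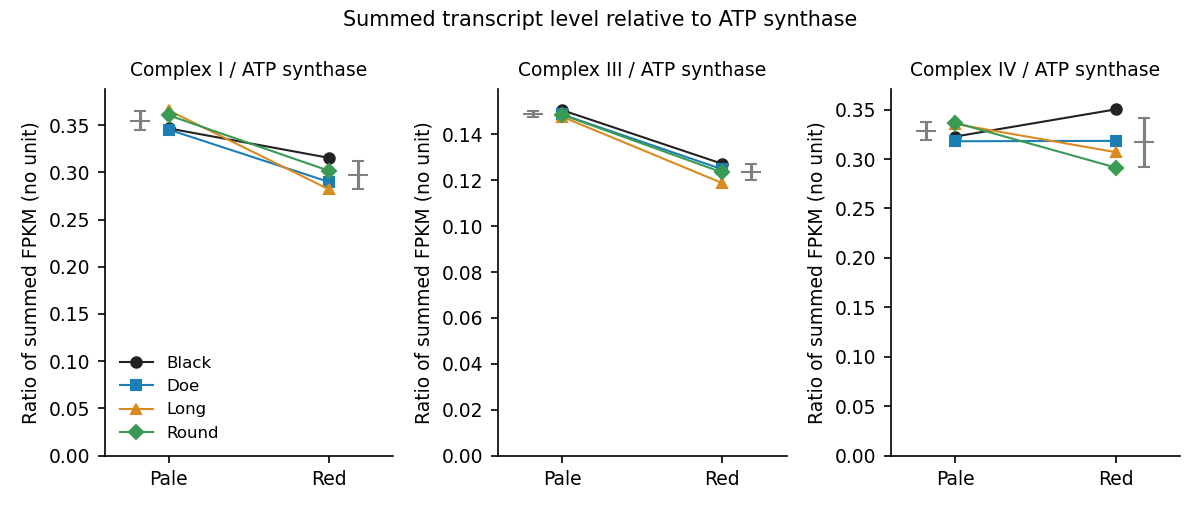
Summed FPKM of complexes I (without chain genes), III and IV divided by that of ATP synthase (vertical axes, no unit) in the Pale and Red library of each lake; lines join the libraries of a lake and grey marks are the mean and SD of 4 libraries. Pale and Red do not overlap for complex I without chain genes (0.354 against 0.297) and complex III (0.149 against 0.123), and do overlap for complex IV. With the chain genes, the complex I sum is higher in Red in Black and Doe.

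Complex I has a catalytic core that carries the flavin and the iron-sulfur clusters, and a shell of accessory subunits. The core genes, here without the 2 genes named chain, had a median of -0.28, with 7 of 8 tested genes below 0. The 2 chain genes, counted apart, had a median of -0.07. The accessory genes named alpha subcomplex had -0.30 (12 of 12 below 0), those named beta subcomplex -0.15 (8 of 8), and the remaining accessory genes -0.30 (4 of 4). With quantile normalization 19 of the 34 genes of the whole complex stayed below 0.

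The core genes with the smallest unadjusted p encode the flavoproteins where NADH is oxidized. Flavoprotein 2 (Daplx7pEVm015649), which carries an iron-sulfur cluster next to the flavin, had 15.44 FPKM in Black Pale, 14.23 in Doe Pale, 17.44 in Long Pale and 16.57 in Round Pale. It had 11.61, 11.05, 11.14 and 11.21 in the Red libraries of Black, Doe, Long and Round. Every Pale library was above every Red library, and the Red libraries were nearly alike. The means were 15.9 ± 1.39 and 11.3 ± 0.247 (SD, n = 4), a log2 difference of -0.46 ± 0.13 (SE) with limma adjusted p = 0.318, lower in 4 of 4 lakes. It was -0.31 with quantile normalization.

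Flavoprotein 1 (Daplx7pEVm009583), the subunit that binds NADH and the flavin, had 37.87 FPKM in Black Pale, 29.74 in Doe Pale, 35.78 in Long Pale and 36.42 in Round Pale. It had 26.76, 20.94, 26.39 and 29.40 in the Red libraries in the same order. The groups did not overlap, and Doe was lowest within each phenotype. Its log2 difference was -0.42 ± 0.13 (limma adjusted p = 0.333) and -0.22 with quantile normalization. It was chosen after its values were seen, as were the genes of complex I in the next 2 paragraphs other than Daplx7pEVm021553 and Daplx7pEVm020744.

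The accessory gene Daplx7pEVm021553, named only as an alpha subcomplex subunit, had 15.18, 10.72, 12.45 and 11.01 FPKM in Black, Doe, Long and Round Pale and 8.01, 6.21, 11.07 and 7.25 in Red. It was lower in Red in each lake, but the Long Red library lay among the Pale ones. The log2 difference was -0.56 ± 0.16 (limma adjusted p = 0.329). Daplx7pEVm021892, of the same name, averaged 30.3 ± 2.21 FPKM in Pale libraries and 23.4 ± 2.62 in Red ones (SD, n = 4) without overlap, and Daplx7pEVm020993 averaged 15.0 ± 4.90 and 10.5 ± 2.62.

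Other core genes differed by less. Iron-sulfur protein 3 (Daplx7pEVm016222), iron-sulfur protein 8 (Daplx7pEVm016921) and the 49 kDa subunit (Daplx7pEVm009015) had log2 differences of -0.30, -0.26 and -0.29, which became -0.08, -0.05 and -0.09 with quantile normalization. The 75 kDa subunit (Daplx7pEVm004608), the largest iron-sulfur protein of the complex, had 29.9 ± 3.85 FPKM in Pale and 27.0 ± 1.43 in Red, and its difference of -0.14 turned to 0.06 with quantile normalization. The single complex I gene above 0 was a gene named iron-sulfur protein 2, Daplx7pEVm020744, which had 0.22 to 2.14 FPKM in Pale and 0.94 to 1.87 in Red and a difference of 0.33 ± 0.34.

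On the deposited scale, the most abundant complex I genes lay nearer to no difference than the core genes counted above, which leave out the chain genes. Daplx7pEVm019794, named NADH-ubiquinone oxidoreductase chain, a name used for subunits encoded in mitochondrial DNA, had 6080, 3973, 5553 and 7806 FPKM in Black, Doe, Long and Round Pale and 6679, 4719, 4988 and 5899 in Red. Doe was lowest within each phenotype, and Red was above Pale in Black and Doe and below it in Long and Round. Its log2 difference was -0.04 ± 0.13, and 0.05 with size factors. The second chain gene, Daplx7pEVm063713, had 111 ± 13.0 FPKM in Pale libraries and 105 ± 22.2 in Red ones (SD, n = 4). The gene named alpha subcomplex subunit 4, Daplx7pEVm026868, whose mammalian counterpart is known to be part of complex IV, had 39.4 ± 4.03 and 39.2 ± 6.94 FPKM.

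In complex III a small subunit had the smallest p, and the Rieske protein lay near 0. The gene named only as a cytochrome b-c1 complex subunit, Daplx7pEVm024261, was the most abundant of the 7. It had 72.95 FPKM in Black Pale, 69.93 in Doe Pale, 77.09 in Long Pale and 85.85 in Round Pale. It had 50.66, 50.71, 51.41 and 47.88 in the Red libraries of the same lakes. Every Red library was far below every Pale library, and the Red values fell within a few FPKM of each other. The means were 76.5 ± 6.92 and 50.2 ± 1.56 (SD, n = 4). The log2 difference was -0.59 ± 0.14 (limma adjusted p = 0.286), lower in 4 of 4 lakes, and -0.38 with quantile normalization.

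The Rieske iron-sulfur subunit (Daplx7pEVm014162), which takes the first electron from ubiquinol, had 41.80, 46.04, 44.89 and 41.42 FPKM in Black, Doe, Long and Round Pale and 45.03, 38.35, 43.56 and 45.39 in Red. The groups overlapped throughout, and the sign varied between lakes. Its log2 difference was -0.02 ± 0.14, and 0.22 with quantile normalization.

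Subunit 2 (Daplx7pEVm010473), a core protein on the matrix side, had 28.99 to 32.67 FPKM in Pale and 25.78 to 27.10 in Red, without overlap and with a log2 difference of -0.22 ± 0.13. It was picked after its values were seen, and the difference was -0.02 with quantile normalization. Its partner subunit 1 (Daplx7pEVm009371) had 45.6 ± 3.69 and 42.9 ± 3.87 FPKM, a difference of -0.09 that was 0.14 with quantile normalization. The small subunits Daplx7pEVm060202 and Daplx7pEVm022375 had 27.7 ± 5.91 against 22.6 ± 2.92 and 19.6 ± 3.29 against 16.7 ± 2.49 FPKM. Subunit 6 (Daplx7pEVm020338), the hinge protein that meets cytochrome c1, was also chosen after its values were seen and had 40.5 ± 2.41 and 35.0 ± 3.8. Summed over the 7 genes, complex III held 260.3 to 296.5 FPKM in Pale and 220.6 to 243.1 in Red, and the groups did not overlap.

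The name rule misses cytochrome c1, the heme subunit of complex III. Its gene, Daplx7pEVm013289, had 37.0 ± 3.27 FPKM in Pale libraries and 29.9 ± 3.55 in Red ones (SD, n = 4), a log2 difference of -0.30 ± 0.15 with limma adjusted p = 0.493.

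Complex IV was mixed. Its most abundant gene, Daplx7pEVm017536, named only as a cytochrome c oxidase subunit, had 113 ± 9.47 FPKM in Pale libraries and 111 ± 5.98 in Red ones (SD, n = 4). Subunit 6C-1 (Daplx7pEVm026864) had 77.4 ± 12.5 and 80.1 ± 8.32, and subunit 6A1 (Daplx7pEVm019487) 73.8 ± 10.4 and 83.1 ± 16.3. Subunits 6C and 6A are nuclear-encoded and surround the catalytic core. In all 3 genes the means differed by less than the SDs. Subunit 5A (Daplx7pEVm022244) was slightly higher in Red in 4 of 4 lakes, with 63.6 ± 7.41 and 67.1 ± 4.85 FPKM and a log2 difference of 0.08 ± 0.13. The genes for polypeptide viii (Daplx7pEVm027525) and subunit 7C (Daplx7pEVm027617) differed by -0.03 and -0.02, and by 0.21 and 0.20 with quantile normalization, the latter chosen after its values were seen.

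A single complex IV gene separated the phenotypes. Daplx7pEVm019294, named as a cytochrome c oxidase subunit with no number, had 56.40, 50.38, 72.54 and 69.48 FPKM in Black, Doe, Long and Round Pale. It had 50.33, 35.03, 42.57 and 44.41 in the Red libraries in that order. Pale lay above Red, but the Doe Pale and Black Red libraries nearly touched. The log2 difference was -0.52 ± 0.15 (limma adjusted p = 0.333), lower in 4 of 4 lakes, and -0.31 with quantile normalization.

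ATP synthase is a rotary enzyme, with a catalytic F1 head of alpha and beta subunits, a membrane ring of c subunits and a stalk that holds the head still. The abundant c, beta and alpha subunit genes had slightly higher means in Red. The c subunit gene Daplx7pEVm018386 was the most abundant, with 566, 517, 605 and 564 FPKM in Black, Doe, Long and Round Pale and 544, 548, 620 and 638 in Red. Red was below Pale in Black only, and the groups overlapped. The log2 difference was 0.06 ± 0.11.

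The beta subunit (Daplx7pEVm007946), which carries the catalytic sites, had 272, 264, 284 and 249 FPKM in Black, Doe, Long and Round Pale and 308, 276, 339 and 307 in Red. It was higher in Red in 4 of 4 lakes, though Doe Red lay below Long Pale. The means were 267 ± 15.0 and 308 ± 25.7 (SD, n = 4) and the log2 difference 0.20 ± 0.12 (limma adjusted p = 0.547), with 0.29 after quantile normalization and after size factors. The alpha subunit (Daplx7pEVm006766) had 279 ± 24.0 and 296 ± 28.7 FPKM, and was higher in Red in 3 of 4 lakes. The gamma subunit (Daplx7pEVm013599), the rotating shaft, had 98.03 ± 11.8 and 93.1 ± 7.80. The gamma gene and, in what follows, Daplx7pEVm010172 and Daplx7pEVm019981 were chosen after their values were seen.

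Smaller ATP synthase genes had values in both directions. One of the genes named subunit e, Daplx7pEVm025170, a small membrane subunit at the dimer interface, had 12.83, 10.35, 21.67 and 36.68 FPKM in Black, Doe, Long and Round Pale and 14.35, 8.22, 6.54 and 15.81 in Red. The Long and Round pairs carried the difference of -0.73 ± 0.31 (limma adjusted p = 0.433). A second gene named subunit e, Daplx7pEVm010172, was higher in Red in 4 of 4 lakes, at 11.5 ± 0.790 and 13.0 ± 0.828 FPKM. A gene named F1 complex O subunit (Daplx7pEVm016507), part of the stalk, had 8.4 to 9.36 FPKM in Pale and 6.13 to 7.70 in Red without overlap. Its more abundant counterpart subunit O, Daplx7pEVm019981, had 52.5 ± 10.3 and 49.1 ± 3.53 and overlapped. Genes of one name can share reads, so the values of such pairs are less certain than their sum. Over all 26 ATP synthase genes, the 4 untested ones included, the sum was 1912 ± 115 FPKM in Pale and 1922 ± 117 in Red.

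**Figure D4:**
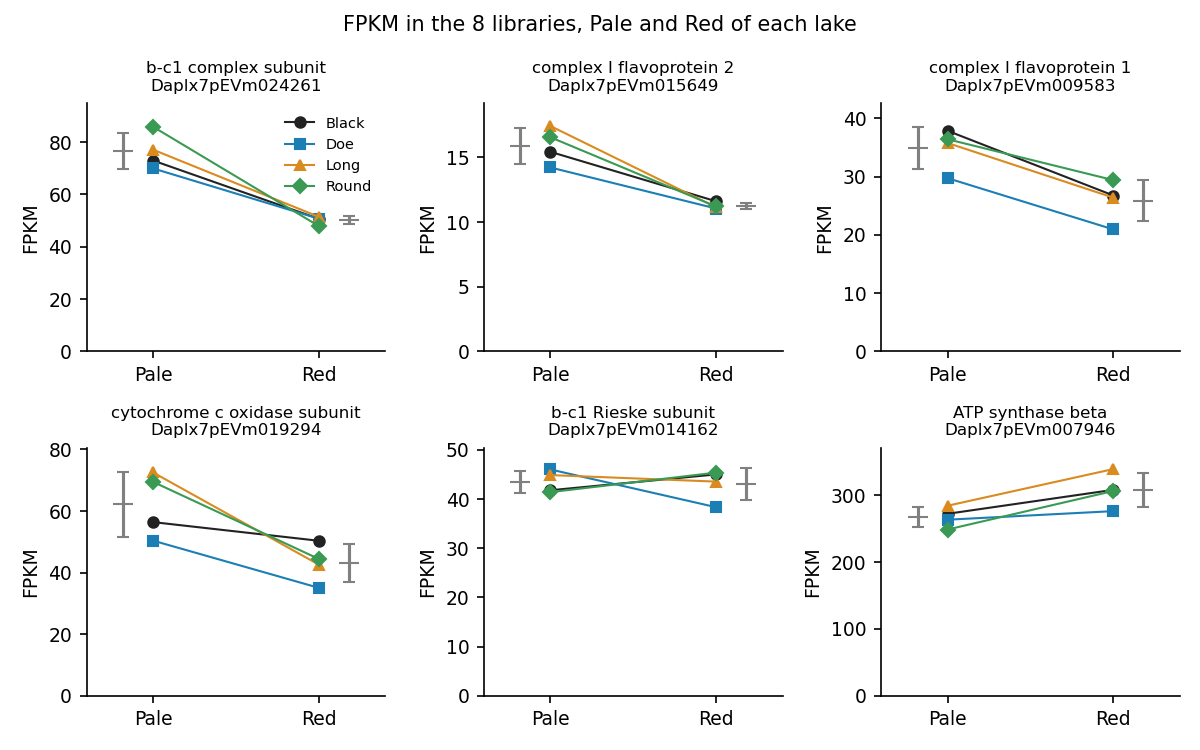
FPKM (vertical axes, from 0) of 6 genes in the Pale and Red library of each lake; lines join the libraries of a lake and grey marks are the mean and SD of 4 libraries. The b-c1 complex subunit, both flavoproteins and the cytochrome c oxidase subunit have every Pale library above every Red one on the deposited scale, the Rieske subunit overlaps, and the beta subunit is higher in Red in each lake.

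Assembly factors, which build the complexes and are not part of them, were of low abundance. Daplx7pEVm025984, a cytochrome c oxidase assembly factor, had 2.32, 1.38, 2.92 and 3.76 FPKM in Black, Doe, Long and Round Pale and 0.94, 0.64, 1.04 and 2.31 in Red. It was lower in Red in 4 of 4 lakes, but the Round Red library lay among the Pale ones. The log2 difference was -0.69 ± 0.16 (limma adjusted p = 0.286). A complex I assembly factor, Daplx7pEVm015538, averaged 10.6 ± 2.19 and 7.21 ± 0.817 FPKM, a difference of -0.49 ± 0.17 (limma adjusted p = 0.362).

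An assembly factor of the F1 head, Daplx7pEVm013769, was the only member with all Red libraries above all Pale ones. It had 2.05, 2.55, 1.07 and 2.36 FPKM in Black, Doe, Long and Round Pale and 3.0, 2.58, 2.95 and 4.34 in Red. The Doe libraries were nearly equal, and the rest were higher in Red. The log2 difference was 0.50 ± 0.19 (limma adjusted p = 0.394). The other F1 assembly factor, Daplx7pEVm015275, had 5.14 ± 1.44 and 3.75 ± 1.23 FPKM. The complex IV factor COX11 (Daplx7pEVm017225), which delivers copper, had 3.54 ± 0.816 and 4.21 ± 0.260. Factor 4 (Daplx7pEVm027226) was listed at 0 in Doe Pale and reached 5.44 FPKM in Long Red. The more abundant factor Daplx7pEVm025671 ranged from 7.44 to 12.92 FPKM in Pale and from 3.59 to 10.62 in Red.

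Outside the main complexes, the flavoprotein-ubiquinone oxidoreductase Daplx7pEVm006017, which feeds electrons from fatty acid oxidation into the ubiquinone pool, had 17.2 ± 5.08 and 15.0 ± 1.97 FPKM. A second gene of that name, Daplx7pEVm007651, had 1.10 ± 0.763 and 1.04 ± 0.407. The vacuolar pump genes Daplx7pEVm010198, Daplx7pEVm015930 and Daplx7pEVm013961 had log2 differences of -0.14, -0.13 and -0.49, of which the first and second were 0.09 and 0.03 with quantile normalization.

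The differences were uneven between lakes, and with 1 pair of libraries per lake a difference between lakes in the Red minus Pale value could not be tested. In Black, Doe, Long and Round the complex I median was -0.06, -0.21, -0.30 and -0.26. The complex III median was -0.29, -0.16, -0.18 and -0.30. In Black the complex I median turned to 0.16 with size factors, 0.10 without the most abundant gene and 0.25 with quantile normalization. The complex III median turned to 0.06 in Black and 0.03 in Long with quantile normalization. All genes had -0.19, -0.02, -0.07 and -0.03 on the deposited scale, so that there Black had the largest shift over all genes and the smallest for complex I. Red was below Pale in 50 of 92 members in Black (background 68.4%), 53 in Doe (51.4%), 68 in Long (55.7%) and 66 in Round (52.8%). It was more than 1.5-fold below Pale in 9 members in Black (background 20.8%), 8 in Doe (13.9%), 17 in Long (20.1%) and 11 in Round (14.3%). It was more than 1.5-fold above Pale in 1 (background 6.2%), 6 (11.8%), 3 (10.2%) and 4 (9.7%). These folds are of FPKM + 1. Members were more abundant than all genes tested (median 20.8 against 4.23 FPKM) and varied less (median coefficient of variation 17.8% against 29.6%). Shares past a fixed fold are therefore not a like comparison.

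The lakes themselves were compared next. In the limma F test over lakes 0 of 92 members had an adjusted p under 0.05, as for all genes (0%), and 5 had an unadjusted p under 0.05 (5.43%, background 9.9%). With each lake set against the mean of the others, 0 members had a limma adjusted p under 0.05 in any lake or direction. Over all genes 0.0311% were higher and 0.00777% lower in Black, and 0% in the other lakes.

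The Doe libraries had low values across the complexes. Of 92 members, 76 were below the mean of the other lakes in Doe, against 60.6% of all genes, and both Doe libraries lay below the other 6 in 15 members (16.3%, background 7.34%), of which 8 were complex I and 5 ATP synthase genes. With size factors, without the most abundant gene and with quantile normalization, 63, 63 and 65 members were below in Doe, against 49.8%, 50.1% and 51.9% of all genes. In Long, 31 members were below on the deposited scale, against 55.9% of all genes, and 25, 26 and 21 under the other scalings, against 49.6%, 50.6% and 44.1%. Round had 31 below on the deposited scale, against 33.1% of all genes, and 59, 54 and 49 under the others, against 49.6%, 45.9% and 47.4%. Black had 38 below, against 48.4%, and 39, 47 and 55 under the others, against 49.1%, 51.5% and 54.4%. Both Doe libraries lay above the other 6 in 0 members (background 2.52%). Both Long libraries lay above in 2 (2.23%) and below in 0 (3.93%), and both Round libraries above in 2 (7.23%) and below in 0 (1.5%).

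Some Black values stood apart by many fold. Daplx7pEVm012198, named mitochondrial atp synthase b chain, had 14.90 FPKM in Black Pale and 13.17 in Black Red. It had 0.56 and 0.89 in Doe Pale and Red, 0.30 and 2.39 in Long, and 1.12 and 1.26 in Round. Both Black libraries were several times above the rest, whichever the phenotype. Black differed from the mean of the other lakes by 2.91 ± 0.32 on the log2 scale (limma adjusted p = 0.0852), and with a pseudocount of 5 in place of 1 the adjusted p was 0.0382. Its F test had an adjusted p of 0.221.

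Daplx7pEVm015058, of the same name, had 64.77 and 22.23 FPKM in Black Pale and Red, 5.34 and 0.00 in Doe, 0.16 and 2.18 in Long, and 1.80 and 1.72 in Round. Black was again highest, by 4.04 ± 0.76 on the log2 scale (limma adjusted p = 0.252), and Doe Red is listed at 0. The b subunit ties the stalk to the membrane. The gene for it with the highest mean FPKM, Daplx7pEVm014023, picked after its values were seen, stayed between 63.05 and 79.38 FPKM in all 8 libraries. The wide variation lay in the b chain genes of lower mean. In Black Pale, Daplx7pEVm015058 came near Daplx7pEVm014023, at 64.77 against 72.45 FPKM.

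The cytochrome c oxidase subunit gene Daplx7pEVm022605 varied with lake and, in part of the lakes, with phenotype. It had 45.19 and 44.99 FPKM in Black Pale and Red, 7.05 and 8.57 in Doe, 23.16 and 6.96 in Long, and 26.89 and 4.90 in Round. Black was highest in both phenotypes, and Red was far below Pale in Long and Round but not in Black or Doe. The Red minus Pale difference was -0.90 ± 0.46 (limma adjusted p = 0.493). The F test over lakes gave a limma adjusted p = 0.499. Both Black libraries were above the other 6 in 4 members (background 4.17%): these 3 genes and a subunit O gene, Daplx7pEVm020497, named for this count after its values were seen, with 7.0 and 7.38 FPKM in Black and 3.17 to 5.42 elsewhere. Both Black libraries were below the other 6 in 4 members (background 3.49%).

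**Figure D5:**
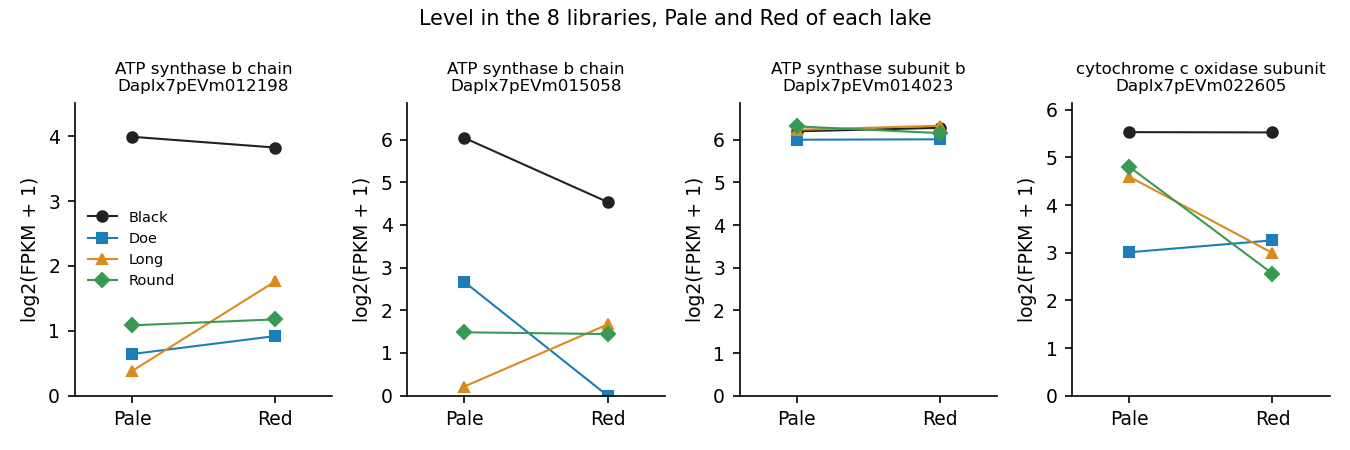
Level in log2(FPKM + 1) (vertical axes, from 0) of 3 genes named for the ATP synthase b subunit and 1 cytochrome c oxidase subunit gene in the Pale and Red library of each lake. Black lies above the other lakes for Daplx7pEVm012198, Daplx7pEVm015058 and Daplx7pEVm022605, while Daplx7pEVm014023 is alike in all 8 libraries.

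A further complex I gene, Daplx7pEVm020436, named for the ESSS subunit, an accessory subunit of the membrane arm, was among the 5 members with an unadjusted F test p under 0.05 (limma adjusted p = 0.455). It had 14.98 and 12.14 FPKM in Doe Pale and Red, below the 20.71 to 29.52 of the other libraries.

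The isoform table holds 335 transcripts of these genes among 109737, of which 204 were tested among 23583. By limma 0 of them had an adjusted p under 0.05, as against 0.00424% of all isoforms. At an unadjusted p under 0.05, 12 were lower (background 7.05%) and 1 was higher (background 2.47%). The isoform with the smallest p was the main one of the b-c1 subunit gene, Daplx7pEVm024261t1, with 64.50, 56.05, 62.97 and 72.70 FPKM in Black, Doe, Long and Round Pale and 39.95, 36.67, 41.78 and 36.59 in Red. Pale and Red did not overlap, and it made up 72.3% to 88.4% of the gene. Its log2 difference was -0.71 ± 0.18 (limma adjusted p = 0.411).

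In the alpha subcomplex gene Daplx7pEVm021553, the isoform Daplx7pEVm021553t2 had 8.86, 8.40, 12.45 and 11.01 FPKM in Pale and 3.59, 0.23, 4.18 and 7.25 in Red, a difference of -1.49 ± 0.40 (limma adjusted p = 0.424). Its share of the gene ran from 3.70% in Doe Red to 100% in Long Pale and in both Round libraries. An isoform of the 49 kDa subunit gene, Daplx7pEVm009015t9, had 0.22 to 4.90 FPKM in Pale and at most 0.06 in Red. The remaining isoforms of small p were Daplx7pEVm022808t3 (-0.54) and Daplx7pEVm025984t1, the sole isoform of its gene. Of the 92 tested genes, 74 have several isoforms, and in 35 of those the leading isoform was not the same in all 8 libraries.

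Other mitochondrial genes were read beside the complexes as lists of names, on the deposited scale only. Over all genes tested there, the median was -0.08 and 61.5% were below 0. At an unadjusted p under 0.05, 9.29% of all genes were lower and 2.89% higher. Each list that follows is to be read beside these shares. Succinate dehydrogenase, complex II, had a median of -0.64 with 5 of 5 tested genes below 0, 3 of them at an unadjusted p under 0.05. Its flavoprotein gene Daplx7pEVm004881 had 57.8 ± 9.31 FPKM in Pale libraries and 32.6 ± 6.47 in Red ones (SD, n = 4), a log2 difference of -0.81 ± 0.15 (limma adjusted p = 0.271). Its iron-sulfur gene Daplx7pEVm015988 and second flavoprotein gene Daplx7pEVm007897 differed by -0.73 and -0.64.

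Electron carriers and ubiquinone synthesis had a median of -0.18 (8 of 9 below 0). Cytochrome c-2 (Daplx7pEVm023509), the shuttle between complexes III and IV, had 45.5 ± 1.63 and 32.2 ± 4.03 FPKM, and the ubiquinone synthesis gene COQ6 (Daplx7pEVm008701) differed by -0.28. Carriers and channels of the mitochondrial membranes had -0.29 (4 of 4). They included an anion channel (Daplx7pEVm013644, -0.32), the uncoupling protein (Daplx7pEVm010646, -0.65) and the ADP/ATP translocase (Daplx7pEVm013952, -0.26), which had 827 ± 100 and 687 ± 42.2 FPKM.

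Of genes tied to mitochondria at low oxygen in vertebrates, 5 of 5 were below 0, with a median of -0.16. The BCL2/adenovirus E1B-interacting protein (Daplx7pEVm014094), known for marking mitochondria for removal, had 33.2 ± 5.07 and 16.7 ± 5.36 FPKM (log2 difference -0.98 ± 0.20, limma adjusted p = 0.277). Lon protease (Daplx7pEVm002424), which degrades matrix proteins, had 9.18 ± 1.34 and 6.21 ± 1.11, and a pyruvate dehydrogenase kinase (Daplx7pEVm009898) differed by -0.16.

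Genes of other functions, mostly mitochondrial, were read in the same way. Mitochondrial DNA maintenance and transcription had a median of -0.05 (5 of 5 below 0), a smaller shift than the all-gene median of -0.08. Among them, 2 genes for transcription factor A (Daplx7pEVm015952 and Daplx7pEVm016050) had -0.25 and -0.16, and the mitochondrial RNA polymerase (Daplx7pEVm001605) had -0.05. The tricarboxylic acid cycle without succinate dehydrogenase had -0.11 (13 of 18). Within it a malate dehydrogenase (Daplx7pEVm010574) differed by 0.32, a succinyl-CoA ligase subunit (Daplx7pEVm012933) by -0.27 and an isocitrate dehydrogenase (Daplx7pEVm009465) by 0.21. Mitochondrial ribosomal proteins had 0.04 (32 of 76 below 0), with S11 (Daplx7pEVm014950) at -0.57, L30 (Daplx7pEVm018979) at 1.06 and S14 (Daplx7pEVm022794) at -0.81. The vacuolar proton pump list had -0.21 (12 of 13), with Daplx7pEVm018688 at -0.39, Daplx7pEVm012199 at -0.30 and Daplx7pEVm026141 at -0.41.

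Muscle is rich in mitochondria, and most of its tested markers lay below 0 in Red too. Of 31 muscle marker genes 19 were tested, 17 of them below 0 in Red (against 61.5% of all genes), with a median of -0.28. By limma 0 passed an adjusted p under 0.05, and at an unadjusted p under 0.05 7 were lower and 1 was higher (against 9.29% and 2.89% of all genes). The summed FPKM of the 31 ran from 1069 to 1676 in Pale and from 844 to 1207 in Red, and 2 of the 31 were at 0 in every library. Troponin C genes Daplx7pEVm019394 and Daplx7pEVm020872 and Titin (Daplx7pEVm000215) differed by -0.85, -0.63 and -0.57. In Doe, 17 of the 19 were also below the mean of the other lakes. The part of muscle in the values of complexes I and III and in those of Doe was not tested. Gut markers had a median of -0.25 (66 of 90 below 0), yolk markers -0.23 (13 of 19) and eye markers 0.02 (14 of 31). At an unadjusted p under 0.05 by limma, 18 gut markers were lower and 2 higher. For yolk markers these counts were 2 and 1, and for eye markers 2 and 4.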

How the data were processed

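RNA of 8 libraries (4 lakes, Red and Pale) was measured by sequencing after ribosomal RNA depletion with a directional kit, per the labels' protocols. The authors deposited FPKM values per gene and per isoform. Reads were trimmed with Trimmomatic, per the submitters' processing notes; the aligner, quantification tool and genome build are not given in the sources used here. The number of reads is unknown, so no counting interval is given. The identifiers matched 0 entries of the RefSeq gene table, so no coordinates are given.

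Fold changes are on the log2(FPKM + 1) scale, where those of low genes come out too small. The analysis kept genes and isoforms with a mean of at least 1 FPKM. The models were fitted in R 4.3.3 by limma 3.58.1 (trended variance, terms for phenotype and for the lake block). P-values are two-sided and, where called adjusted, Benjamini-Hochberg adjusted over all features tested, with 0.05 as the threshold. A value after ± behind a log2 difference is its standard error (SE), and some log2 differences are given without it. The procedure was also run on simulated data with independent noise for each gene and no shifts in library scale. That run does not bear on how results depend on the scaling. Tables and plots used Python 3.11.15, pandas 2.3.3 and matplotlib 3.10.9.

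The lake pairs a Red with a Pale library by the labels. After removal of the phenotype means, the correlation over genes between a lake's libraries was 0.485 (Black), -0.0149 (Doe), -0.0212 (Long) and 0.214 (Round).

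Genes are named by rule: per complex the 3 of highest mean FPKM, the 2 of lowest p in each direction and the 2 of largest F over lakes; the 5 isoforms of lowest p; and for other lists the 3 genes of lowest p. Genes outside this rule were chosen after their values were seen and are marked where they are named. For the eye, gut and yolk lists only counts and medians are given. Members and lists were chosen with earlier results of these data known; complexes and roles were assigned from gene names. The complex ratios and the differences of medians were added after values were seen. Alternatives were other scalings, pseudocounts and filters, leaving out each lake, and a fit without the lake.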

Additional observations from a re-analysis of the deposited data

Results flagged for a closer look

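In groups of 4 libraries, 9 of 86 groups had a library far from the others by Dixon's criterion. Chance meets it in about 1 in 20 groups of unselected values. Most groups here are of genes named by rule, in part for a large F over lakes, so that rate does not apply. Of the 9 flagged groups, 5 were Black libraries of 3 genes, each named for its F over lakes. None of the 3 passed an adjusted test over lakes on the deposited scale with a pseudocount of 1. With a pseudocount of 5, Daplx7pEVm012198 passed for Black against the other lakes (limma adjusted p = 0.0382). The ATP synthase b chain gene Daplx7pEVm012198 had 14.90 FPKM in Black Pale and 13.17 in Black Red, against 0.30 to 1.12 and 0.89 to 2.39 in the other libraries of the same phenotype. The b chain gene Daplx7pEVm015058 had 64.77 in Black Pale and 22.23 in Black Red, where the others reached at most 5.34 and 2.18. The cytochrome c oxidase subunit gene Daplx7pEVm022605 had 44.99 in Black Red, against 4.90 to 8.57.

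The other 4 were smaller. Cytochrome c oxidase subunit 6A1 (Daplx7pEVm019487) had 89.32 FPKM in Black Pale, above 67.61 to 70.12. The oxidase subunit gene Daplx7pEVm017536 had 102.44 in Doe Red, below 112.98 to 114.98. The assembly factor Daplx7pEVm025671 had 3.59 in Long Red, below 9.51 to 10.62. The complex III sum was 220.63 in Doe Red, below 241.19 to 243.14.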

How the results depend on the processing

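As deposited, 0 members passed an adjusted test. With quantile normalization, 3 members were lower and 2 higher at an unadjusted p under 0.05, and 41 of 92 were below 0, against 46.7% of all genes. The medians were -0.0194 for complex I, -0.0224 for III, 0.2051 for IV and 0.1137 for ATP synthase, with 5 isoforms lower. With size factors the medians were -0.1257 for complex III and 0.0167 for ATP synthase, and 7 isoforms were lower. Without the most abundant gene, 5 members and 5 isoforms were lower, with -0.1120 for complex III and 0.0316 for ATP synthase. A pseudocount of 5 gave 1 member higher in Black at an adjusted p under 0.05, Daplx7pEVm012198. With no filter 5 isoforms were higher. With a mean of at least 5 FPKM, 0 members were higher, 7 isoforms were lower, and the assembly factor median, over 2 genes, was -0.3624. The complex I to ATP synthase ratio as a median over FPKM had a mean log2 Red over Pale of -0.0901, against -0.255. As a ratio of sums it was -0.253 with untested members added and -0.232 without the c subunit gene. Genes named chain were left out of each of these ratios. The causes of these shifts were not tested. For counts at an unadjusted p under 0.05, the share of all features is given only for the fit as deposited with all lakes. Such counts under other settings, here and in the next paragraph, therefore do not say whether members differ from all genes.

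Leaving out each lake in turn gave 0 adjusted calls, 6 to 8 members lower and 0 (without Long or Round) to 1 higher, 7 (without Long) to 13 isoforms lower and 2 to 3 higher. The ATP synthase median ran from -0.0815 to -0.0021 (without Round), and the complex IV median from -0.0471 to 0.0082. The assembly factor median ran from -0.087 to -0.0227, opposite in sign to 0.04 with all lakes. The complex I ratio ran from -0.2949 to -0.2154, and the complex I less ATP synthase median from -0.218 (without Round) to -0.0743 (without Long). Without the lake as replicate block, 11 members were lower and 1 higher at an unadjusted p under 0.05, with 0 adjusted calls, and no other count moved by over 1.5 times.

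Depth limits the low genes most, and 14 members could not be tested. Names without a number do not say which subunit is meant, and each lake has 1 library per phenotype.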
